A study of Arabidopsis thaliana with 12 samples.

Results

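The genes of chlorophyll and tetrapyrrole synthesis and breakdown were described in whole seedlings of 3 Arabidopsis thaliana genotypes. The 36 genes were listed by their locus identifiers, by a rule that names enzymes and regulators of the pathway and uses no measured value, with earlier results of these data known, and all 36 were found among the 37885 genes of the deposited count table. Of these, 29 act in synthesis or its control and 7 in breakdown. The seedlings were 7 days old, untreated, and grown in continuous light on agar without sucrose. The genotypes were prt6-1erfvii, which carries prt6-1 and T-DNA mutations in the 5 group VII ETHYLENE RESPONSE FACTOR genes (HRE1, HRE2, RAP2.2, RAP2.3 and RAP2.12), prt6-1, a mutant of the N-degron E3 ligase PRT6, and the wild type Col-0. Each was represented by 4 libraries labelled as biological replicates, with 23156637 to 30582461 counts per library. The p-values therefore set a difference between genotypes against the spread between these libraries. By its labels, the comparison of prt6-1erfvii with prt6-1 asks what depends on the ERFVII transcription factors in a prt6 background, and the comparison of prt6-1 with Col-0 what the loss of PRT6 changes. The 3 comparisons share libraries, so they are not independent of each other.

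The mutated genes were examined first. PRT6 read 7.22 to 10.096 CPM (counts scaled to a common library size after TMM normalization) in prt6-1erfvii, 45.1 to 76.4 CPM in prt6-1 and 56.3 to 65.2 CPM in Col-0. PRT6 transcript was therefore not lower in the libraries labelled prt6-1, and the directions given for them rest on that label, since a transcript level does not show whether the protein works. The comparison of prt6-1erfvii with prt6-1 thus also differed in PRT6 itself (log2 fold change -2.81 ± 0.18 SE, adjusted p = 1.25e-06), while prt6-1 over Col-0 gave 0.044 ± 0.15 (SE, adjusted p = 0.954). Differences between prt6-1erfvii and prt6-1 therefore cannot be assigned to the ERFVII genes apart from PRT6, and whether ERFVII proteins were stable in the libraries labelled prt6-1 was not measured. HRE1 had 0 counts in all 4 prt6-1erfvii libraries, against 5.07 to 6.07 CPM in prt6-1 and 3.51 to 4.75 CPM in Col-0. RAP2.3 read 0.371 to 0.944 CPM in prt6-1erfvii, 57.3 to 83.4 CPM in prt6-1 and 77.2 to 98.0 CPM in Col-0, and HRE2 had 0 to 2 counts in prt6-1erfvii, against 2.121 to 3.19 CPM in prt6-1 and 0.273 to 1.26 CPM in Col-0. RAP2.12 read 48.1 to 53.9 CPM in prt6-1erfvii, 92.2 to 110.5 CPM in prt6-1 and 88.8 to 100.3 CPM in Col-0. RAP2.2 read 56.4 to 61.1 CPM in prt6-1erfvii, 105 to 114 CPM in prt6-1 and 100.1 to 112 CPM in Col-0. Both were thus lower in prt6-1erfvii without overlap (log2 fold changes over prt6-1 of -0.93 and -0.89) but not absent. Replicate 4 of prt6-1 stood apart from its group. The chi-square per degree of freedom between replicates was 12.02 to 15.1 for its 3 pairs and 3.88 to 11.4 for the other 15 replicate pairs of the 3 genotypes, so counts are also given without it. The seedlings were whole, and fewer cells of a type and less RNA per cell cannot be told apart in them.

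Tetrapyrroles are ring-shaped pigments built in the chloroplast from glutamate. Glutamate is turned into 5-aminolevulinic acid (ALA), ALA into protoporphyrin IX, and from there a magnesium branch leads to chlorophyll while an iron branch leads to haem and to the bilin chromophore of phytochrome. Because free intermediates produce reactive oxygen in the light, supply at the ALA step is tightly matched to use further down, and chlorophyll is dismantled through a separate chain of enzymes when leaves senesce or light-harvesting complexes are remodelled. Angiosperms need light at the protochlorophyllide oxidoreductase (POR) step, which is why seedlings green only when lit.

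Levels spanned several orders of magnitude along the pathway. Per kb of exon, the highest member in Col-0 was CRD1, a subunit of the cyclase that forms the fifth ring, at 973 ± 58.2 CPM per kb in prt6-1erfvii, 910.4 ± 33.6 in prt6-1 and 1040.3 ± 39.6 in Col-0 (SD, n = 4 each). Next in Col-0 came PORB (394 ± 41.2 CPM per kb), CHLI1 (368 ± 17.0 CPM per kb) and CHLH (339 ± 7.78 CPM per kb), of which PORB and CHLI1 lay within 1 SD of each other. In prt6-1erfvii this order was different, with CHLI1 at 397 ± 10.2, CHLH at 338 ± 11.9 and PORB at 229 ± 22.3 CPM per kb. The breakdown genes were low beside these, from 49.7 ± 5.997 CPM per kb for NYC1 down to 0.395 ± 0.0946 for SGR2 in Col-0. PORA, the POR form of dark-grown seedlings, was the lowest member in all 3 genotypes, with 1 to 20 counts per library.

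**Figure D1:**
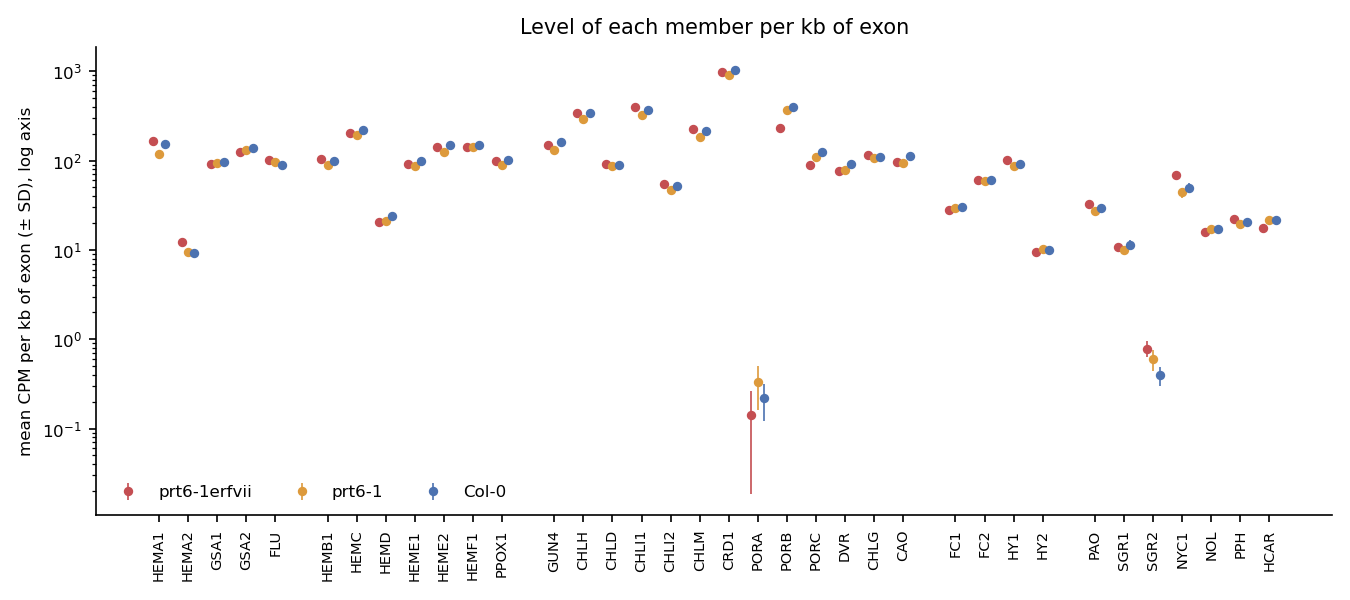
Mean level of each of the 36 genes in CPM per kb of exon (log axis; bars are SD over 4 libraries) in prt6-1erfvii, prt6-1 and Col-0, with the genes in pathway order. CRD1 is highest at 1040.3 CPM per kb in Col-0, PORA and SGR2 lie below 1 CPM per kb in every genotype, and PORB is the member whose prt6-1erfvii point falls furthest below the others among the abundant genes.

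Comparing prt6-1erfvii with prt6-1, both HEMA genes of ALA synthesis, 4 of the 5 magnesium chelatase and GUN4 genes and 3 of the 7 breakdown genes were higher in prt6-1erfvii, and the light-dependent reductases PORB and PORC were lower. Tested with edgeR's quasi-likelihood test and Benjamini-Hochberg adjustment over all genes (adjusted p under 0.05, all 36 members tested in each comparison), 14 members were higher and 3 lower in prt6-1erfvii, and 19 did not pass. The background was wide, since 31.3% of all 20857 genes tested passed (16.6% higher and 14.7% lower). The median log2 fold change over the 36 members was 0.11, beside 0.00088 over all genes tested. The libraries of prt6-1erfvii and prt6-1 did not overlap for 17 members, 14 of them higher in prt6-1erfvii, where 31.2% of all genes tested did not overlap. The changes were small, between 11.99% and 58.7% for the 14 that rose.

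Against Col-0, prt6-1erfvii had 5 members higher and 7 lower, with 37.2% of all 20747 genes tested called (18.5% higher and 18.7% lower), so the members' share of 33.3% lay near the background. The median log2 fold change over the members was -0.066, beside -0.0090 over all genes tested, and for 12 members the libraries of prt6-1erfvii and Col-0 did not overlap (34.8% of all genes tested). In the libraries labelled prt6-1 against Col-0, 5 members were lower (HEMA1, HEME2, GUN4, CHLH and CAO) and 0 higher, where 2.18% of all 20899 genes tested were called (1.09% in each direction). The count of 0 higher was also 0 at an unadjusted p under 0.05 and with DESeq2, while 16 members were lower at an unadjusted p under 0.05 (6.46% of all genes tested) and 9 with DESeq2 (1.63% of all genes it tested), which added HEME1, PPOX1, CHLM and CRD1. The estimate was below 0 for 30 of the 36 members (median log2 fold change -0.13, beside 0.0022 over all genes), and for 12 members every prt6-1 library lay below every Col-0 library, where 7.76% of all genes tested did not overlap (4.18% with prt6-1 lower and 3.57% with prt6-1 higher). The lowest of the 3 genotype means was that of prt6-1 for 22 members, of prt6-1erfvii for 11 and of Col-0 for 3 (FLU, HEMA2 and SGR2).

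**Figure D2:**
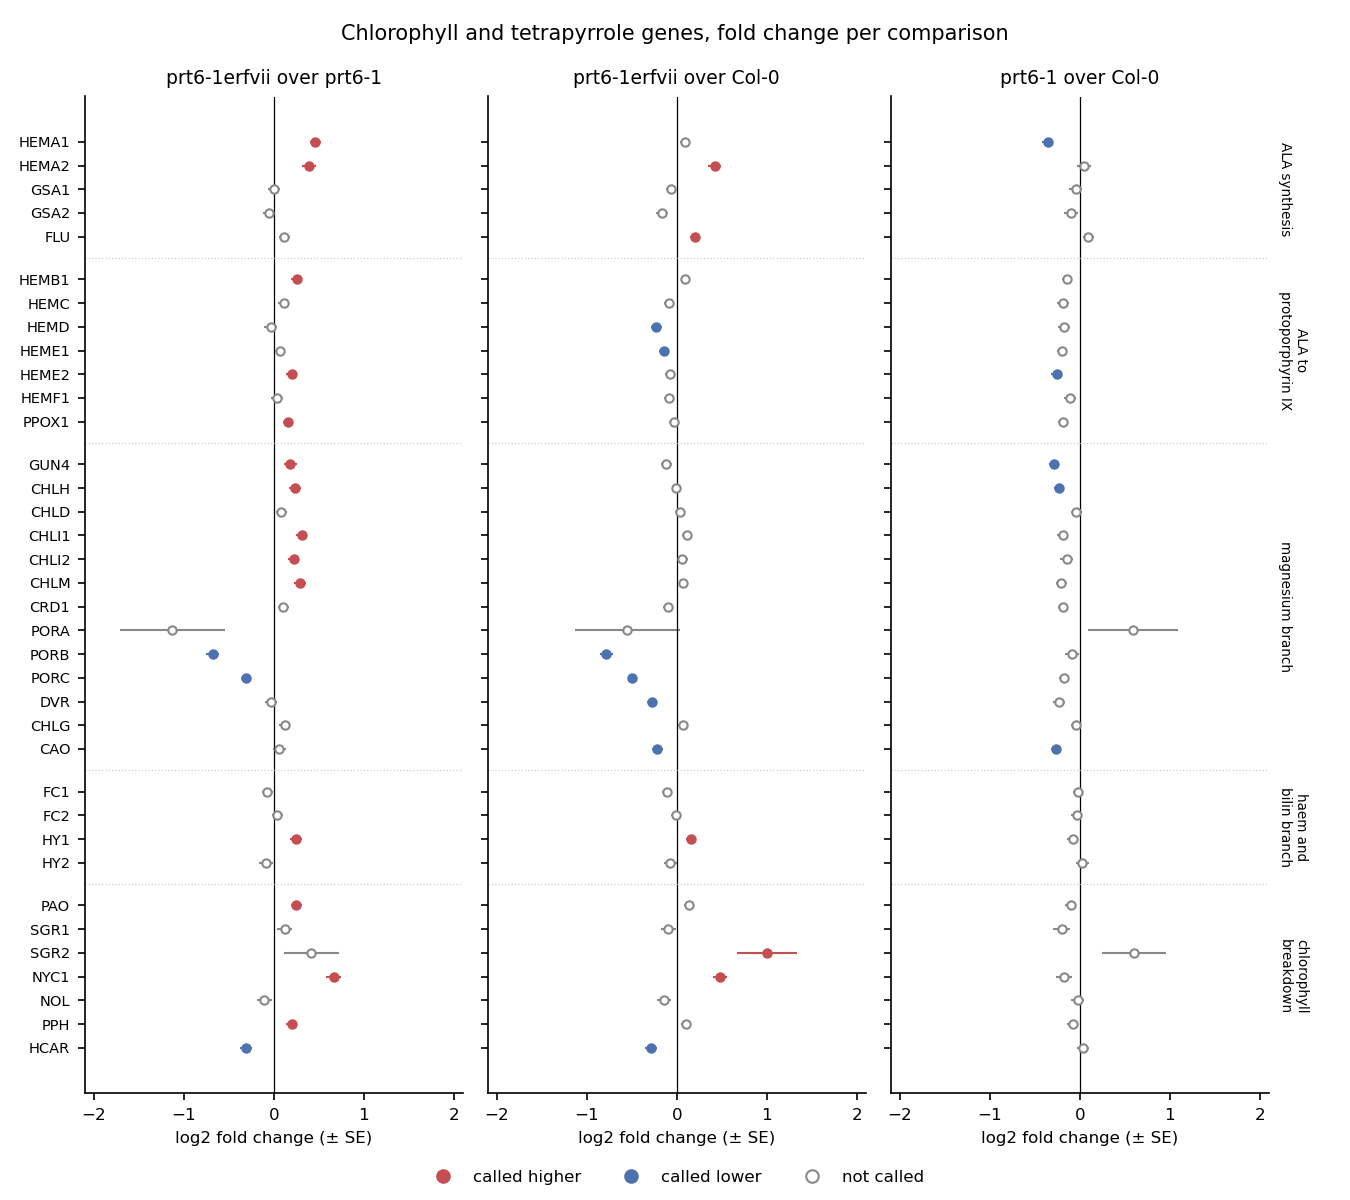
Log2 fold change (point) and its standard error (bar) of each of the 36 genes in the 3 comparisons, first genotype over second, grouped by step, with filled points for genes past the threshold (red higher, blue lower). In prt6-1erfvii over prt6-1, 14 points are red and 3 blue (PORB, PORC and HCAR), and in prt6-1 over Col-0 all 5 filled points are blue.

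Libraries and scaling bore on these counts. Without prt6-1 replicate 4, 14 members were still higher and 3 lower in prt6-1erfvii than in prt6-1, but 14 rather than 5 members were lower in prt6-1 than in Col-0. Over all genes the calls in prt6-1 against Col-0 grew as well without that library, to 1231 from 455, with 3.11% of the genes tested lower, so the members' count rose together with the background. The 9 added were HEMC, HEME1, PPOX1, CHLI1, CHLM, CRD1, PORC, DVR and NYC1, at log2 fold changes of -0.18 to -0.29. Without prt6-1 replicate 1, 9 members were higher in prt6-1erfvii than in prt6-1 and 3 lower in prt6-1 than in Col-0 (14.4% and 0.742% of all genes tested). Without Col-0 replicate 1, 2 or 3, 3 members were lower in prt6-1 than in Col-0 (0.821%, 0.669% and 0.67% of all genes tested). Without prt6-1erfvii replicate 4 or Col-0 replicate 4, 3 members were higher in prt6-1erfvii than in Col-0 (15.8% and 16.1%). Scaling by library totals alone left 8 members higher in prt6-1erfvii than in prt6-1 (12% of all genes tested), without HEME2, PPOX1, GUN4, CHLH, CHLI2 and PPH. It left 3 lower in prt6-1 than in Col-0 (0.718% of all genes tested), without HEME2 and CHLH. That scaling moved the share of higher calls among all genes called to 36.5% from 53.2% in prt6-1erfvii against prt6-1, and to 69.6% from 49.9% in prt6-1 against Col-0.

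At ALA synthesis, both genes of glutamyl-tRNA reductase, the enzyme of the first committed step, were higher in prt6-1erfvii than in prt6-1, but they differed in where Col-0 lay. HEMA1 (AT1G58290), the light-regulated main form (chr1:21623700-21626402, minus strand, TAIR10.1), read 352, 380.5, 394 and 388 CPM in prt6-1erfvii, 296, 281, 247 and 283 CPM in prt6-1 and 362, 353, 344 and 361 CPM in Col-0. Every prt6-1 library lay below every library of the other genotypes, and prt6-1erfvii overlapped Col-0. The log2 fold change was 0.46 ± 0.065 (SE, adjusted p = 2.34e-05) in prt6-1erfvii over prt6-1 and -0.36 ± 0.059 (SE, adjusted p = 0.00126) in prt6-1 over Col-0, but 0.093 ± 0.051 (SE, adjusted p = 0.163) in prt6-1erfvii over Col-0. HEMA2 (AT1G09940), a form expressed at a lower level and also outside green tissue, read 28.1, 25.9, 27.3 and 27.0 CPM in prt6-1erfvii, 20.1, 19.7, 21.5 and 21.8 CPM in prt6-1 and 17.9, 20.0, 20.5 and 22.2 CPM in Col-0. Here prt6-1erfvii stood above every library of both other genotypes, which overlapped each other. Its log2 fold changes were 0.39 ± 0.072 (SE, adjusted p = 3.93e-04) over prt6-1 and 0.42 ± 0.073 (SE, adjusted p = 7.27e-05) over Col-0. The prt6-1erfvii over Col-0 difference in HEMA1 passed the threshold once prt6-1erfvii replicate 1 was left out (log2 fold change 0.13, adjusted p = 0.0430).

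The 250 bases before the annotated start of HEMA1 are shown because it had the largest fall of any member in prt6-1 against Col-0. The 6 motifs below were searched on both strands of such windows of 27443 protein-coding genes: the G-box CACGTG, the GCC box GCCGCC to which ERF proteins are known to bind, the I-box GATAAG of light-regulated genes, the CCAAT-type box CCAATC, the evening element AAAATATCT of clock-regulated genes and the hypoxia-responsive promoter element (HRPE). None of their letters occurred in the HEMA1 window (chr1:21626403-21626652, minus strand, TAIR10.1, RefSeq annotation), which is printed all in lower case.
HEMA1: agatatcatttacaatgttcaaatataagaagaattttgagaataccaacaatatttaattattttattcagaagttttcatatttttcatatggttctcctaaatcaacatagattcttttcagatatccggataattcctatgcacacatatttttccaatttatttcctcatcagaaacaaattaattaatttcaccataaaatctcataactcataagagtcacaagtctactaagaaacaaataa
No member held an HRPE match, which occurred in 3 of the 27443 windows (0.0109%).

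The later enzymes of ALA synthesis moved less. GSA1 (AT5G63570), a glutamate-1-semialdehyde aminotransferase, read 191, 178, 174 and 184 CPM in prt6-1erfvii, 165, 177, 186 and 205 CPM in prt6-1 and 196, 205, 181 and 176 CPM in Col-0. GSA2 (AT3G48730), the other, read 234, 228, 205 and 216 CPM in prt6-1erfvii, 206, 227, 236 and 253 CPM in prt6-1 and 264, 277, 223 and 226 CPM in Col-0. Libraries of the 3 genotypes overlapped for both genes, and neither passed the test in any comparison. The GSA2 estimate in prt6-1erfvii over Col-0 was -0.16 (95% interval -0.30 to -0.026), which passed the threshold without prt6-1erfvii replicate 1, Col-0 replicate 3 or Col-0 replicate 4 (log2 fold change -0.19 to -0.21) and under 3 other settings. FLU (AT3G14110), a membrane protein that holds glutamyl-tRNA reductase back in the dark, read 128, 131, 139 and 126 CPM in prt6-1erfvii, 119, 115, 125 and 127 CPM in prt6-1 and 112, 122, 111 and 110.2 CPM in Col-0. All 4 prt6-1erfvii libraries lay above all Col-0 libraries, with a log2 fold change of 0.20 ± 0.054 (SE, adjusted p = 0.00516). FLU lies 0.059 Mb from RAP2.2, a mutated locus, and the part of that linkage in the difference was not tested.

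Between ALA and protoporphyrin IX, 3 of 7 members were higher in prt6-1erfvii than in prt6-1 (HEMB1, HEME2 and PPOX1) and 0 lower. These counts were the same at an unadjusted p under 0.05 and with DESeq2. In that comparison 16.6% of all genes tested were higher and 14.7% lower. The estimates of all 7 members were below 0 in prt6-1 over Col-0, with HEME2 past the threshold, and their median log2 fold change was -0.18. HEMB1 (AT1G69740), the ALA dehydratase, ranged over 219 to 226 CPM in prt6-1erfvii, 171 to 201 CPM in prt6-1 and 204 to 211 CPM in Col-0, so that no library of any genotype reached the range of another. Its log2 fold change over prt6-1 was 0.25 ± 0.060 (SE, adjusted p = 0.00332). HEMB1 lies 1.01 Mb from HRE1 and HEMA1 1.49 Mb from RAP2.12, and the part of linkage was not tested for either. HEMD (AT2G26540), the uroporphyrinogen III synthase, read 36.8, 34.1, 35.8 and 32.6 CPM in prt6-1erfvii, 35.9, 32.8, 37.9 and 37.2 CPM in prt6-1 and 40.4, 41.2, 39.1 and 42.0 CPM in Col-0. Col-0 lay above all 8 mutant libraries, and prt6-1erfvii over Col-0 gave -0.23 ± 0.060 (SE, adjusted p = 0.00469).

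The paired genes of uroporphyrinogen III decarboxylase were read beside each other. HEME1 (AT3G14930) had 192, 185, 184 and 178 CPM in prt6-1erfvii, 165, 181, 177 and 189 CPM in prt6-1 and 202, 212, 192 and 210.1 CPM in Col-0. A single prt6-1erfvii library, replicate 1, reached into the Col-0 range, and the log2 fold change of prt6-1erfvii over Col-0 was -0.14 ± 0.051 (SE, adjusted p = 0.0311). That call was lost without prt6-1erfvii replicate 2 or 4 or Col-0 replicate 2 or 4 (log2 fold change -0.12 to -0.14) and in 1 fit over all 12 libraries, HEME1 lies 0.281 Mb from RAP2.2, and a neighbouring gene overlaps it on the same strand. HEME2 (AT2G40490) had 227, 225, 218 and 218 CPM in prt6-1erfvii, 181, 195, 205 and 199.9 CPM in prt6-1 and 246, 255, 223 and 211 CPM in Col-0. All prt6-1 libraries lay below all libraries of prt6-1erfvii and of Col-0, and the log2 fold changes were 0.20 ± 0.058 (SE, adjusted p = 0.0140) in prt6-1erfvii over prt6-1 and -0.26 ± 0.066 (SE, adjusted p = 0.0429) in prt6-1 over Col-0. The first was lost without prt6-1 replicate 1 (log2 fold change 0.16), the other without prt6-1 replicate 1 or 2 or Col-0 replicate 1, 2 or 3 (-0.21 to -0.28). Both were lost with library totals, and the other also with the replicate number as a block.

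The remaining members of this stretch changed little. PPOX1 (AT4G01690), the protoporphyrinogen oxidase, ranged over 171 to 180.4 CPM in prt6-1erfvii, 153 to 167 CPM in prt6-1 and 173 to 186 CPM in Col-0, and its log2 fold change over prt6-1 of 0.16 ± 0.056 (SE, adjusted p = 0.0333) held under 7 of 15 alternatives. That call was lost with library totals, with no filter on low counts and with the replicate number as a block (down to 0.084). It was also lost without prt6-1erfvii replicate 2, 3 or 4 or prt6-1 replicate 1 or 2 (0.15 to 0.16). HEMC (AT5G08280), the porphobilinogen deaminase, and HEMF1 (AT1G03475), a coproporphyrinogen oxidase, passed in no comparison. HEMC ranged over 328 to 349 CPM in prt6-1erfvii, 278 to 335 CPM in prt6-1 and 338 to 379.8 CPM in Col-0, and HEMF1 over 237 to 256 CPM in prt6-1erfvii, 216 to 257 CPM in prt6-1 and 249.8 to 279 CPM in Col-0. Their log2 fold changes were 0.11 and 0.037 in prt6-1erfvii over prt6-1 and -0.18 and -0.11 in prt6-1 over Col-0.

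In the magnesium branch, 5 of 13 members were higher and 2 lower in prt6-1erfvii than in prt6-1 (16.6% and 14.7% of all genes tested). The 5 that rose acted at the magnesium chelatase and at the step after it. Magnesium chelatase inserts the metal that marks the way to chlorophyll, through the porphyrin-binding subunit CHLH (AT5G13630), the ATPase subunits CHLI1 and CHLI2 (AT5G45930), the subunit CHLD and the activator GUN4. CHLH read 1591, 1620.3, 1540.3 and 1676 CPM in prt6-1erfvii, 1393, 1458, 1433 and 1206 CPM in prt6-1 and 1603, 1665, 1578 and 1603 CPM in Col-0. All prt6-1 libraries were below those of both other genotypes, prt6-1 replicate 4 being the lowest. The log2 fold changes of CHLH were 0.24 ± 0.064 (SE, adjusted p = 0.00819) in prt6-1erfvii over prt6-1 and -0.23 ± 0.059 (SE, adjusted p = 0.0424) in prt6-1 over Col-0, the last of these lost without prt6-1 replicate 1 or any one Col-0 library (-0.21 to -0.24). The estimate of prt6-1erfvii over Col-0 was -0.0051 (95% interval -0.11 to 0.096).

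GUN4 (AT3G59400), which binds the porphyrin and is named for its part in plastid-to-nucleus signalling, read 168, 208, 202 and 193 CPM in prt6-1erfvii, 169.6, 181, 166 and 167 CPM in prt6-1 and 208, 214, 196 and 217 CPM in Col-0. The prt6-1 libraries lay below all Col-0 libraries, whereas prt6-1erfvii replicate 1 fell within the prt6-1 range. GUN4 had a log2 fold change of -0.29 ± 0.057 (SE, adjusted p = 0.00638) in prt6-1 over Col-0, which held under all 15 alternatives, and of 0.19 ± 0.068 (SE, adjusted p = 0.0438) in prt6-1erfvii over prt6-1, which held under 6 of 15. That call was lost with library totals, with RLE size factors, with no filter on low counts and with the replicate number as a block (down to 0.105). It was also lost without prt6-1erfvii replicate 2, 3 or 4 or prt6-1 replicate 1 or 3 (0.15 to 0.18). CHLI1 (AT4G18480) read 614, 644, 642 and 652 CPM in prt6-1erfvii, 473, 500.0, 520.4 and 580.0 CPM in prt6-1 and 602, 625, 568 and 571 CPM in Col-0. CHLI1 was higher in every prt6-1erfvii library than in every prt6-1 library, at 0.31 ± 0.063 (SE, adjusted p = 9.16e-04), while Col-0 lay between and overlapped both. CHLI2 read 84.4, 83.5, 84.9 and 82.9 CPM in prt6-1erfvii, 65.7, 73.5, 72.5 and 78.3 CPM in prt6-1 and 80.3, 87.8, 81.5 and 71.6 CPM in Col-0. Its prt6-1erfvii libraries were above those of prt6-1 and inside the Col-0 range, with 0.22 ± 0.063 (SE, adjusted p = 0.0116) over prt6-1, lost without prt6-1 replicate 1 (0.18). CHLD (AT1G08520) ranged over 234 to 249 CPM in prt6-1erfvii, 216 to 247 CPM in prt6-1 and 223 to 249 CPM in Col-0 and did not pass in any comparison (estimates 0.083, 0.032 and -0.036 in prt6-1erfvii over prt6-1, prt6-1erfvii over Col-0 and prt6-1 over Col-0). In prt6-1erfvii over Col-0, CHLI1 passed without prt6-1erfvii replicate 1 (0.13).

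CHLM (AT4G25080), the methyltransferase that follows the chelatase, read 359.8, 377, 408 and 385 CPM in prt6-1erfvii, 299, 302, 298 and 359.5 CPM in prt6-1 and 364, 371, 359 and 359 CPM in Col-0. Replicate 4 of prt6-1 stood far above the other prt6-1 libraries, just under the lowest prt6-1erfvii library, and within the narrow Col-0 range. The log2 fold change of CHLM was 0.29 ± 0.068 (SE, adjusted p = 0.00261) over prt6-1 and 0.36 without that replicate. CRD1 (AT3G56940), the cyclase subunit, ranged over 1333 to 1528 CPM in prt6-1erfvii, 1319.5 to 1432 CPM in prt6-1 and 1490.2 to 1609 CPM in Col-0 and passed in no comparison, with estimates of 0.11 in prt6-1erfvii over prt6-1 and -0.19 in prt6-1 over Col-0. The last of these passed with DESeq2, with RLE size factors, with no filter on low counts and without prt6-1 replicate 4 (log2 fold change -0.22).

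The POR step ran the other way. PORB (AT4G27440), which with PORC serves light-grown seedlings, read 430.1, 365, 355 and 353 CPM in prt6-1erfvii, 539.9, 662, 598 and 629.6 CPM in prt6-1 and 715, 685, 562 and 624 CPM in Col-0. Every prt6-1erfvii library lay below every library of prt6-1 and Col-0, which overlapped. PORB (chr4:13725546-13727440, plus strand, TAIR10.1) thus fell by 37.6% against prt6-1 (log2 fold change -0.68 ± 0.074 SE, adjusted p = 1.46e-06) and fell by 41.9% against Col-0 (-0.78 ± 0.074 SE, adjusted p = 1.43e-07), while prt6-1 over Col-0 gave -0.088 ± 0.075 (SE, adjusted p = 0.718). PORC (AT1G03630) read 157, 163, 157 and 159 CPM in prt6-1erfvii, 186, 199, 198 and 210.0 CPM in prt6-1 and 228, 237, 212 and 219.8 CPM in Col-0. The 3 genotypes did not overlap in PORC, with prt6-1erfvii lowest and Col-0 highest. Its log2 fold changes were -0.31 ± 0.057 (SE, adjusted p = 4.57e-04) over prt6-1 and -0.50 ± 0.051 (SE, adjusted p = 4.32e-08) over Col-0, and prt6-1 over Col-0 gave -0.18 ± 0.058 (SE, adjusted p = 0.151), or -0.20 (adjusted p = 0.0174) without prt6-1 replicate 4. All 4 tests of PORB and PORC with prt6-1erfvii kept their call under every alternative run. On the opposite strand, however, PORB overlaps AT4G27450 and PORC overlaps AT1G03620. The counting setting for strand is not given, so reads of these pairs may not be told apart. The part of such reads in the falls of PORB and PORC was not tested.

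PORA (AT5G54190) read 0.334, 0.0429, 0.0875 and 0.468 CPM in prt6-1erfvii, 0.145, 0.799, 0.636 and 0.629 CPM in prt6-1 and 0.436, 0.433, 0.467 and 0.119 CPM in Col-0. These are 1 to 20 counts per library, the genotypes overlapped, and no comparison passed the test (log2 fold change -1.13 ± 0.58 SE, adjusted p = 0.157 over prt6-1), so a difference in PORA was not detectable at this depth. Within each library, the ratio of PORB to CHLH per kb of exon was 0.611 to 0.783 in prt6-1erfvii, 1.12 to 1.51 in prt6-1 and 1.03 to 1.29 in Col-0, and that of PORB to HEMA1 1.27 to 1.72 in prt6-1erfvii, 2.56 to 3.41 in prt6-1 and 2.303 to 2.78 in Col-0. In prt6-1erfvii, then, PORB was below CHLH in every library, and in the other genotypes above it in every library.

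The region before PORB is shown because it had the largest fall of the abundant members, with motif matches in capitals. It holds an evening element and a CCAATC box, and a second CCAATC box lies further out, within the 64 bases left out because the neighbouring gene AT4G27435 is annotated there (chr4:13725360-13725545, plus strand, TAIR10.1).
PORB: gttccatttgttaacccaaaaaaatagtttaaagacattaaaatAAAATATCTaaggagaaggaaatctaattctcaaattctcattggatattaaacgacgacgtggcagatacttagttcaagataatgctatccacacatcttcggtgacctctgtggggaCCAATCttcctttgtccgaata
The evening element occurred in 3 members (PORA, PORB and NYC1) and in 2.36% of all windows, and CCAATC in 3 members (GSA2, GUN4 and PORB) and in 10.2% of all windows. PORC held a GCC box 130 bases before its start, shown with its flanks (chr1:907381-907410, plus strand), in a stretch also spanned by AT1G03620 on the opposite strand.
PORC: gaccgttaagttGCCGCCttcttctctctt
A GCC box occurred in PORC and NOL alone among the 36 members and in 1.87% of all windows. These matches are descriptions of the letters and do not show that a factor binds there.

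**Figure D3:**
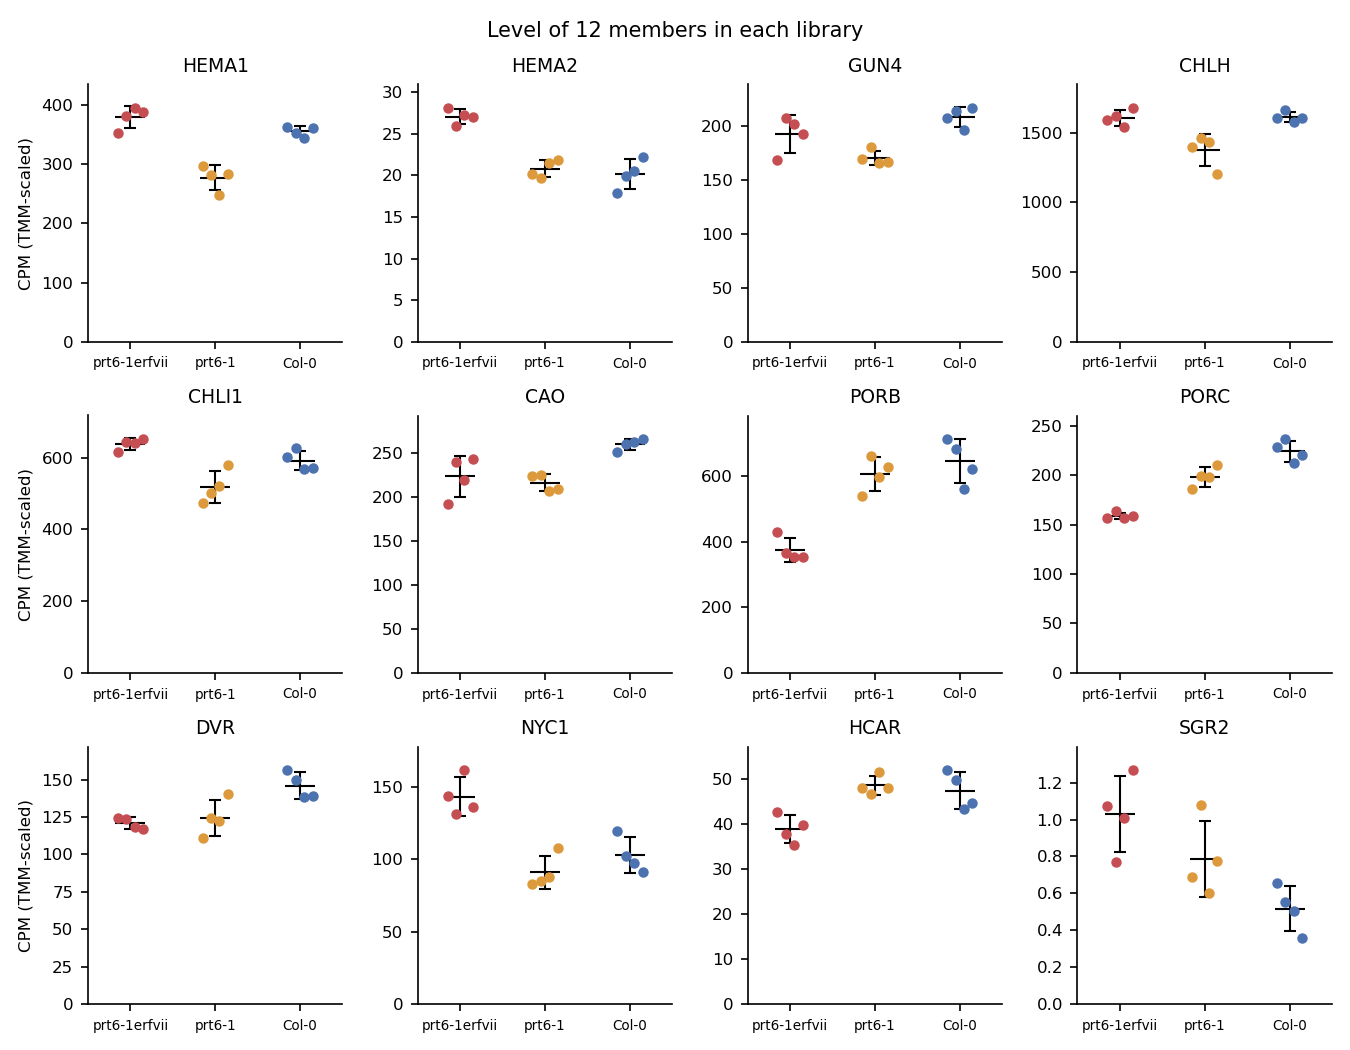
Level of 12 members in CPM (linear axes from 0) in each of the 4 libraries of prt6-1erfvii, prt6-1 and Col-0, with the mean and SD as a bar. HEMA1 and CHLH dip in prt6-1 alone, GUN4 lies below Col-0 in prt6-1, HEMA2 and NYC1 stand highest in prt6-1erfvii, and PORB, PORC and HCAR are lowest in prt6-1erfvii.

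At the last steps to chlorophyll a and b, DVR and CAO passed the test in prt6-1erfvii against Col-0 and did not in prt6-1erfvii against prt6-1. DVR (AT5G18660), the divinyl reductase, read 124, 124, 118 and 117 CPM in prt6-1erfvii, 111, 124, 122 and 140.4 CPM in prt6-1 and 157, 150.1, 138 and 139 CPM in Col-0. All prt6-1erfvii libraries lay below all Col-0 libraries, and prt6-1 replicate 4 alone reached the Col-0 range. DVR fell in prt6-1erfvii against Col-0, at a log2 fold change of -0.27 ± 0.053 (SE, adjusted p = 2.60e-04), with estimates of -0.031 over prt6-1 and -0.23 in prt6-1 over Col-0, the last of these -0.29 (adjusted p = 0.00236) without prt6-1 replicate 4. CAO (AT1G44446), the chlorophyllide a oxygenase, which makes chlorophyll b, read 192, 239, 219.6 and 243 CPM in prt6-1erfvii, 224, 224, 207 and 209 CPM in prt6-1 and 251, 259.7, 262 and 266 CPM in Col-0. Col-0 lay above all 8 mutant libraries, and the mutants overlapped. The log2 fold changes of CAO were -0.22 ± 0.062 (SE, adjusted p = 0.00849) in prt6-1erfvii over Col-0 and -0.26 ± 0.054 (SE, adjusted p = 0.00973) in prt6-1 over Col-0. CAO was the only member that passed as lower in both mutants against Col-0 in the main fits. For HEMD and PORC, too, Col-0 lay above all 8 mutant libraries, without passing in prt6-1 over Col-0. For CAO, 0.060 separated prt6-1erfvii from prt6-1 (95% interval -0.090 to 0.21). CHLG (AT3G51820), the chlorophyll synthase, ranged over 196 to 202 CPM in prt6-1erfvii, 170.4 to 194 CPM in prt6-1 and 185 to 199 CPM in Col-0 and passed in no comparison (estimates 0.068 to 0.12 over the comparisons with prt6-1erfvii).

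CAO was also 1 of 7 members with a G-box, the core bound by light-signalling bZIP and bHLH factors, and held it 2 times, 52 and 32 bases before its start. The 30 bases around each G-box are given because this motif was more frequent among the members than any other searched, at 19.4% of 36 against 6.49% of all windows, with motif letters in capitals (TAIR10.1).
HEMD (chr2:11290366-11290395, minus strand): gacattaaaacgCACGTGgagatagaattg
CRD1 (chr3:21076441-21076470, plus strand): attaattatcgcCACGTGtctggctcccac
CAO, distal (chr1:16851306-16851335, minus strand): tattaataccgcCACGTGttcaattctctc
CAO, proximal (chr1:16851286-16851315, minus strand): caattctctctaCACGTGtcatcttcccga
FC2 (chr2:12954149-12954178, minus strand): atcacaactgtgtggaCACGTGtggttctc
HY2 (chr3:2803437-2803466, plus strand): gactgtgcattcCACGTGgcggatgtgggc
SGR2 (AT4G11910, chr4:7156026-7156055, plus strand): cgcaattaaagcCACGTGtgaaccttaatc
NOL (chr5:1434741-1434770, plus strand): cttatatGCCGCCACGTGgcatttaactct
In NOL the G-box shares its first base with the last base of the GCC box before it. The FC2 stretch overlaps the annotated gene AT2G30395, and the NOL stretch overlaps AT5G04895. None of the 7 was among the 17 members that passed in prt6-1erfvii over prt6-1: 0 of the 14 that rose and 0 of the 3 that fell held a G-box, against 7 of the 19 that did not pass, counts given with no test. The I-box occurred in HEMF1, PORA and SGR2 and in 12.3% of all windows.

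In breakdown, 3 of 7 members were higher (NYC1, PAO and PPH) and 1 lower (HCAR) in prt6-1erfvii than in prt6-1 (16.6% and 14.7% of all genes tested). Chlorophyll b is first reduced back towards chlorophyll a by NYC1 and NOL and then by HCAR, and of these NYC1 was higher and HCAR lower, while NOL did not pass. NYC1 (AT4G13250, chr4:7684156-7687006, minus strand, TAIR10.1), a chlorophyll b reductase, read 144, 131, 162 and 136 CPM in prt6-1erfvii, 83.3, 84.9, 87.8 and 108 CPM in prt6-1 and 120.0, 102, 97.8 and 91.0 CPM in Col-0. Every prt6-1erfvii library was above every library of prt6-1 and Col-0, and those of prt6-1 and Col-0 overlapped. NYC1 rose by 58.7% against prt6-1 (log2 fold change 0.67 ± 0.084 SE, adjusted p = 9.23e-06) and by 39.4% against Col-0 (0.48 ± 0.081 SE, adjusted p = 1.91e-04). In prt6-1 over Col-0 the estimate was -0.17, or -0.26 (adjusted p = 0.0333) without prt6-1 replicate 4, the highest prt6-1 library. HCAR (AT1G04620), the 7-hydroxymethyl chlorophyll a reductase, read 42.6, 37.8, 35.4 and 39.8 CPM in prt6-1erfvii, 48.0, 46.8, 51.7 and 48.1 CPM in prt6-1 and 52.1, 49.9, 43.3 and 44.7 CPM in Col-0. Here every prt6-1erfvii library was below every library of the others, at -0.31 ± 0.071 (SE, adjusted p = 0.00260) over prt6-1 and -0.29 ± 0.069 (SE, adjusted p = 0.00205) over Col-0. The ratio of NYC1 to HCAR per kb of exon was 3.63 to 4.91 in prt6-1erfvii, 1.83 to 2.42 in prt6-1 and 2.19 to 2.48 in Col-0, and the prt6-1erfvii ratios did not overlap the others. NOL (AT5G04900), which acts with NYC1, ranged over 19.8 to 24.6 CPM in prt6-1erfvii, 23.2 to 25.1 CPM in prt6-1 and 23.7 to 25.6 CPM in Col-0, with no call in any comparison (estimates -0.10 over prt6-1 and -0.14 over Col-0), and it lies 0.952 Mb from PRT6.

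The window before NYC1 is shown because NYC1 had the largest rise of any member against prt6-1 (chr4:7687007-7687256, minus strand, TAIR10.1). Its only match was an evening element, in capitals, 12 bases before the start.
NYC1: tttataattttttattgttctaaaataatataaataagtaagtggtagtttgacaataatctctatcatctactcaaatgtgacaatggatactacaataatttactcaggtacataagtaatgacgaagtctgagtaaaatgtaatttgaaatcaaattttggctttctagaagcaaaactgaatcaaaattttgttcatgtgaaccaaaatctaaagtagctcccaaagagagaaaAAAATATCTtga

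PAO (AT3G44880), the pheophorbide a oxygenase that opens the ring, and PPH (AT5G13800), the pheophytinase that removes the phytol tail, were the other breakdown genes that rose. PAO ranged over 63.1 to 70.2 CPM in prt6-1erfvii, 52.7 to 56.3 CPM in prt6-1 and 55.3 to 62.2 CPM in Col-0 and PPH over 49.3 to 52.7 CPM in prt6-1erfvii, 43.9 to 46.9 CPM in prt6-1 and 45.9 to 49.6 CPM in Col-0. For both, prt6-1erfvii lay above all prt6-1 libraries, at 0.25 ± 0.063 (SE, adjusted p = 0.00483) and 0.20 ± 0.062 (SE, adjusted p = 0.0201), and against Col-0 neither passed. The PPH call was lost without prt6-1erfvii replicate 3 or 4 or prt6-1 replicate 1 (0.18 to 0.20). It was also lost with library totals and with the replicate number as a block. PAO against Col-0 passed with that block and without prt6-1erfvii replicate 3 (0.15 in the latter). SGR1 (AT4G22920), the magnesium dechelatase that starts senescence-type breakdown, read 19.6, 18.1, 18.7 and 19.7 CPM in prt6-1erfvii, 18.7, 17.3, 15.3 and 19.4 CPM in prt6-1 and 17.9, 18.7, 22.6 and 22.0 CPM in Col-0. Its libraries overlapped in all comparisons and none passed. SGR2, its paralogue, read 1.08, 0.772, 1.01 and 1.27 CPM in prt6-1erfvii, 0.689, 1.08, 0.601 and 0.777 CPM in prt6-1 and 0.654, 0.552, 0.506 and 0.356 CPM in Col-0. The prt6-1erfvii libraries lay above those of Col-0, at 1.00 ± 0.34 (SE, adjusted p = 0.0214), but these are 9 to 38 counts per library. The SGR2 call was lost without prt6-1erfvii replicate 4 or Col-0 replicate 3 or 4 (0.86 to 0.99).

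In the haem and bilin branch HY1 alone of 4 members passed in each comparison with prt6-1erfvii, and 0 passed in prt6-1 over Col-0, also 0 at an unadjusted p under 0.05 and with DESeq2. Of all genes tested, 31.3% passed in prt6-1erfvii over prt6-1, 37.2% in prt6-1erfvii over Col-0 and 2.18% in prt6-1 over Col-0. FC1 (AT5G26030), a ferrochelatase found in all tissues, read 63.1, 56.0, 54.8 and 54.7 CPM in prt6-1erfvii, 61.3, 60.6, 58.9 and 61.3 CPM in prt6-1 and 59.7, 62.1, 62.2 and 61.8 CPM in Col-0. FC2 (AT2G30390), the ferrochelatase of green tissue, read 127, 119, 121 and 119 CPM in prt6-1erfvii, 109, 119.9, 125 and 123 CPM in prt6-1 and 126, 123, 122 and 117 CPM in Col-0. The genotypes overlapped for both, and neither passed in any comparison, although FC1 in prt6-1erfvii over Col-0 did without prt6-1erfvii replicate 1 (-0.15). HY1 (AT2G26670), the haem oxygenase that opens haem to biliverdin, ranged over 136 to 161 CPM in prt6-1erfvii, 119 to 133 CPM in prt6-1 and 125 to 136 CPM in Col-0. HY1 rose against prt6-1, at 0.25 ± 0.066 (SE, adjusted p = 0.00797), with no overlap, and against Col-0, at 0.16 ± 0.058 (SE, adjusted p = 0.0380), with 1 prt6-1erfvii library inside the Col-0 range. The HY1 call against Col-0 was lost without prt6-1erfvii replicate 3 or 4 or Col-0 replicate 1, 2 or 4 (0.10 to 0.16), with library totals and in 1 fit over all 12 libraries. HY2 (AT3G09150), which makes phytochromobilin from biliverdin, ranged over 17.6 to 20.2 CPM in prt6-1erfvii, 18.5 to 21.5 CPM in prt6-1 and 19.4 to 20.4 CPM in Col-0 and passed in no comparison (-0.088, -0.071 and 0.031 in prt6-1erfvii over prt6-1, prt6-1erfvii over Col-0 and prt6-1 over Col-0).

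The balance between paralogues was compared within each library, as the ratio of CPM per kb of exon, and is given as a description. The ratio of HEMA1 to HEMA2 was 11.9 to 13.99 in prt6-1erfvii, 10.96 to 14.03 in prt6-1 and 15.5 to 19.2 in Col-0, so both mutants lay below all Col-0 libraries. In prt6-1 it was HEMA1 that fell against Col-0, and in prt6-1erfvii it was HEMA2 that rose. The ratio of PORB to PORC was 2.43 to 2.98 in prt6-1erfvii, 3.17 to 3.62 in prt6-1 and 2.89 to 3.41 in Col-0, with every prt6-1erfvii library but replicate 1 below all others. The ratio of SGR1 to SGR2 was 11.5 to 17.4 in prt6-1erfvii, 11.9 to 20.1 in prt6-1 and 20.3 to 45.7 in Col-0, with both mutants below Col-0 by a narrow margin. HEME2 over HEME1 (1.55 to 1.605 in prt6-1erfvii, 1.39 to 1.52 in prt6-1 and 1.32 to 1.596 in Col-0) was higher in every prt6-1erfvii library than in every prt6-1 library, and Col-0 overlapped both. GSA2 over GSA1 (1.299 to 1.42 in prt6-1erfvii, 1.37 to 1.41 in prt6-1 and 1.36 to 1.496 in Col-0), CHLI1 over CHLI2 (6.95 to 7.50 in prt6-1erfvii, 6.49 to 7.06 in prt6-1 and 6.65 to 7.61 in Col-0) and FC2 over FC1 (2.05 to 2.25 in prt6-1erfvii, 1.82 to 2.16 in prt6-1 and 1.94 to 2.16 in Col-0) overlapped between genotypes.

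**Figure D4:**
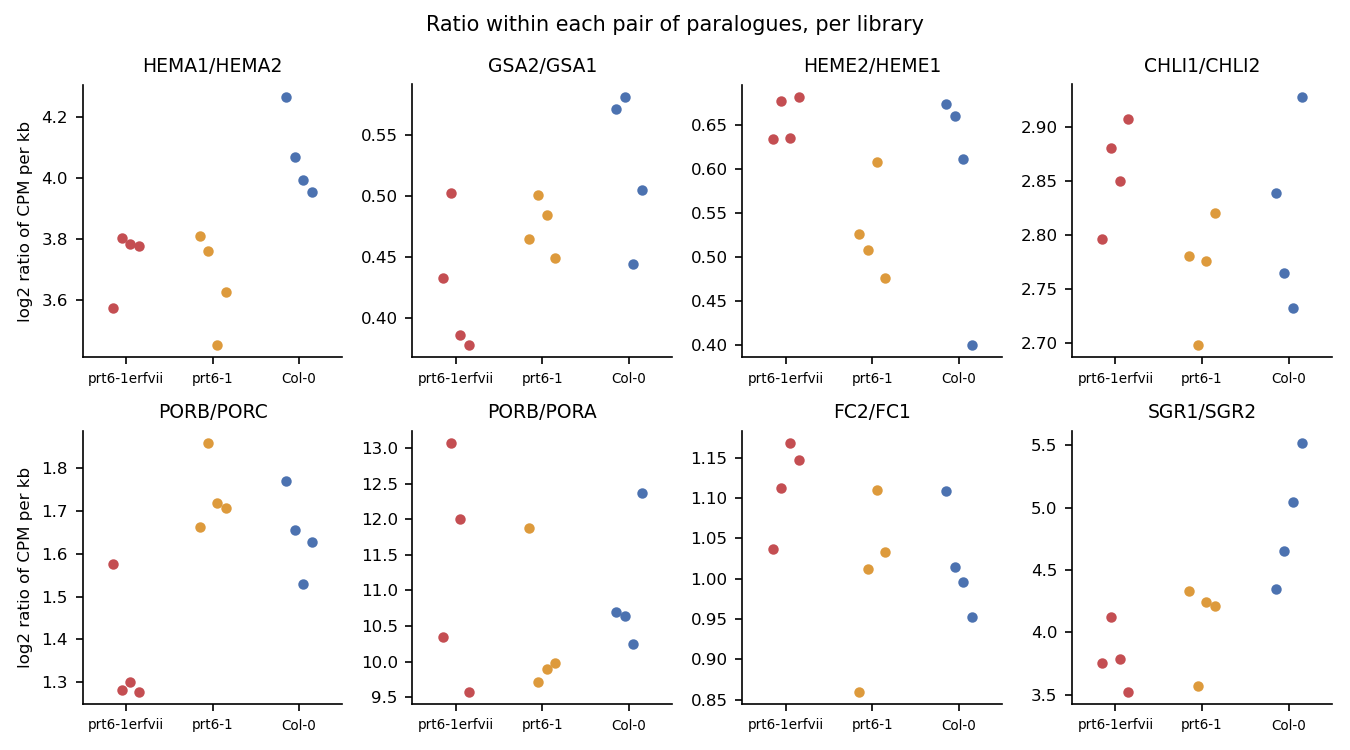
Log2 ratio of CPM per kb of exon between the 2 genes of each paralogue pair in each of the 4 libraries of prt6-1erfvii, prt6-1 and Col-0. HEMA1/HEMA2 is lower in both mutants than in Col-0, and PORB/PORC is lowest in prt6-1erfvii, whereas PORB/PORA, with 1 to 20 PORA counts per library, spreads widely.

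Summed over their members, the steps of the pathway differed between genotypes by different amounts, and a sum mostly follows its abundant members. The 29 synthesis genes together had 8231 to 8505 CPM in prt6-1erfvii, 7516 to 8017 CPM in prt6-1 and 8531 to 9195 CPM in Col-0, and the 7 breakdown genes 328 to 353 CPM in prt6-1erfvii, 274 to 299 CPM in prt6-1 and 283 to 324 CPM in Col-0. Synthesis sums were highest in Col-0 without overlap, and breakdown sums highest in prt6-1erfvii without overlap. The mean breakdown sum was 341 CPM in prt6-1erfvii, 282 CPM in prt6-1 and 302 CPM in Col-0. NYC1 alone averaged 143 CPM in prt6-1erfvii, 91.0 CPM in prt6-1 and 103 CPM in Col-0. Breakdown sums without NYC1 were not compared, so the sum does not show a rise of the breakdown members in general. The ALA synthesis sum was 933 to 944 CPM in prt6-1erfvii, 806 to 889.5 CPM in prt6-1 and 879.8 to 976 CPM in Col-0, and the magnesium branch sum 5503 to 5801 CPM in prt6-1erfvii, 5199 to 5489 CPM in prt6-1 and 5883 to 6330.2 CPM in Col-0. In the magnesium branch Col-0 stood above both mutants, while at ALA synthesis prt6-1erfvii fell within the Col-0 range and above prt6-1. PORB alone averaged 376 CPM in prt6-1erfvii, 607 CPM in prt6-1 and 646 CPM in Col-0. PORB is also part of the synthesis sum. Magnesium branch and synthesis sums without PORB were not compared. These sums therefore do not show that their members in general were lower in prt6-1erfvii than in Col-0.

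**Figure D5:**
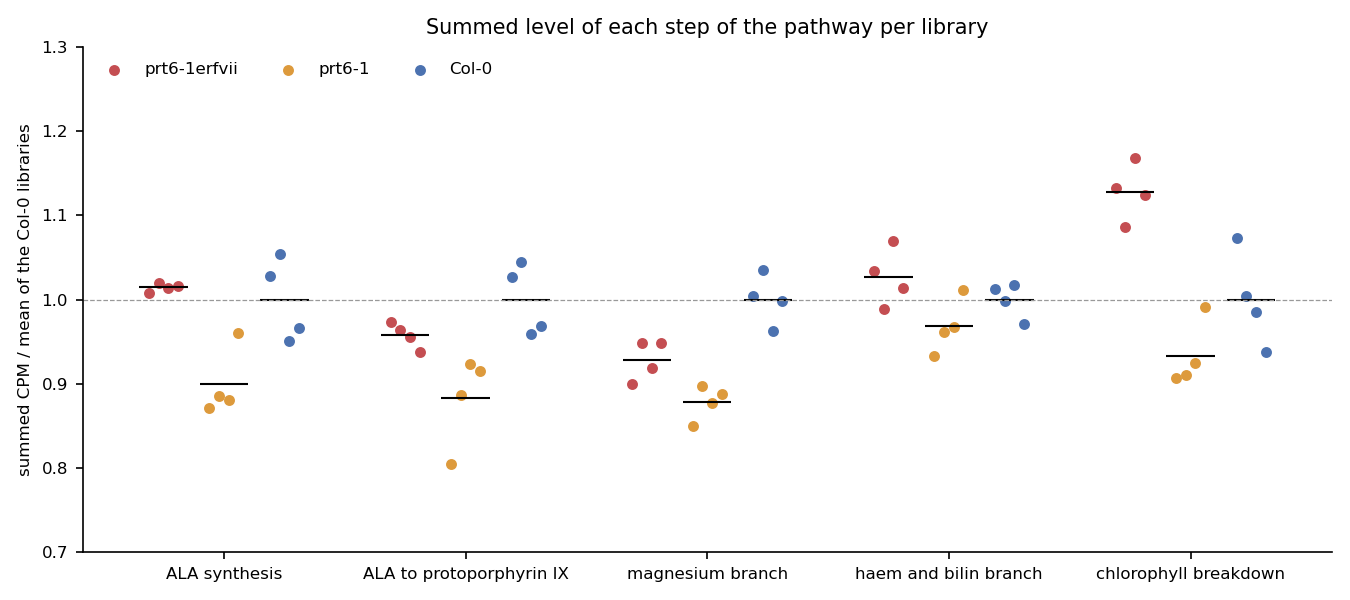
Summed CPM of the members of each step in each library, divided by the mean of the Col-0 libraries (points: libraries; horizontal lines: means of 4 libraries; the axis starts at 0.7). The prt6-1 points lie below 1 in all steps but for 1 library of the haem and bilin branch, and prt6-1erfvii lies above 1 in breakdown and below 1 in the magnesium branch.

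Other genes of the pathway were read from 2 further lists. Of 13 other synthesis genes tested, 2 were higher and 2 lower in prt6-1erfvii than in prt6-1 (16.6% and 14.7% of all genes tested). Those lower were UPM1 (AT5G40850), which diverts uroporphyrinogen III towards sirohaem (-0.49 ± 0.066 SE, adjusted p = 1.44e-05), and HEMF2 (AT4G03205), a second coproporphyrinogen oxidase gene (-0.55 ± 0.11 SE, adjusted p = 6.07e-04), and those higher were LCAA (AT5G58250), an accessory factor of the cyclase (0.26 ± 0.058 SE, adjusted p = 0.00209), and GBP (AT3G21200), which binds glutamyl-tRNA reductase (0.19 ± 0.065 SE, adjusted p = 0.0316). Against Col-0, 0 were higher in prt6-1erfvii, also at an unadjusted p under 0.05 and with DESeq2, and 4 were lower (UPM1, HEMF2, HO3 and GGR). Of all genes tested, 18.5% were higher and 18.7% lower there. HO3 had only 9 to 13 counts per library in prt6-1erfvii and 17 to 27 in Col-0. In prt6-1 over Col-0, 0 of 14 passed, where 2.18% of all genes tested did. At an unadjusted p under 0.05, 4 were lower and 0 higher (6.46% and 6.07% of all genes tested). With DESeq2, 1 was lower (1.63% of all genes it tested).

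Of 11 other breakdown genes, 4 were higher and 2 lower in prt6-1erfvii than in prt6-1 (16.6% and 14.7% of all genes tested). Against Col-0, 5 were higher and 5 lower in prt6-1erfvii (18.5% and 18.7% of all genes tested). MES16, CYP89A9, CLH1 and CLH2 each changed by more than any of the 17 members that passed. MES16 (AT4G16690), an esterase that acts on the colourless catabolites of chlorophyll, averaged 35.0 ± 4.55 CPM in prt6-1erfvii, 9.70 ± 0.702 in prt6-1 and 11.4 ± 0.510 in Col-0 (SD, n = 4 each), a log2 fold change of 1.86 ± 0.098 (SE, adjusted p = 1.35e-10) over prt6-1. CYP89A9 (AT3G03470), which oxidises such catabolites, averaged 12.3 ± 1.26 CPM in prt6-1erfvii, 5.38 ± 0.955 in prt6-1 and 5.10 ± 1.25 in Col-0 (SD, n = 4 each), at 1.20 ± 0.13 (SE, adjusted p = 1.50e-06). TIC55 (AT2G24820), which hydroxylates them, rose by less, at 0.36 ± 0.058 (SE, adjusted p = 9.86e-05). The chlorophyllases, which remove phytol from chlorophyll in the test tube, split: CLH1 (AT1G19670) averaged 24.7 ± 1.86 CPM in prt6-1erfvii, 46.6 ± 5.66 in prt6-1 and 48.4 ± 2.99 in Col-0 (SD, n = 4 each) and fell (-0.91 ± 0.088 SE, adjusted p = 3.26e-07), while CLH2 (AT5G43860) averaged 5.45 ± 0.852 CPM in prt6-1erfvii, 2.46 ± 0.643 in prt6-1 and 2.42 ± 0.813 in Col-0 (SD, n = 4 each) and rose (1.16 ± 0.19 SE, adjusted p = 1.07e-04). In prt6-1 over Col-0, SGRL (AT1G44000), an SGR relative of green leaves, was the only 1 of the 11 that passed (-0.29 ± 0.061 SE, adjusted p = 0.0108). There 2.18% of all genes tested passed.

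Markers of other tissues were measured beside these genes. Over all genes tested, 16.6% were higher and 14.7% lower in prt6-1erfvii than in prt6-1. Of 10 green tissue markers, 1 was higher and 0 lower in prt6-1erfvii than in prt6-1 (2 higher and 1 lower at an unadjusted p under 0.05, 1 and 0 with DESeq2). Against Col-0, 4 were lower in prt6-1erfvii and 3 in prt6-1 (18.7% and 1.09% of all genes tested). The antenna genes LHCB1.3 and LHCA1 and the photosystem I gene PSAF were lower in both. In prt6-1 over Col-0 the estimates of all 10 were below 0 (median -0.13), close to the median of the members. Their summed level was 51162 to 57912 CPM in prt6-1erfvii, 51491 to 56778 CPM in prt6-1 and 58551 to 60268 CPM in Col-0. Of 10 root markers, 1 was higher and 5 lower in prt6-1erfvii than in prt6-1, and in prt6-1 over Col-0 the estimates of 9 were above 0, with PIN2 past the threshold. Their summed level was 87.4 to 99.9 CPM in prt6-1erfvii, 98.7 to 127 CPM in prt6-1 and 86.6 to 99.96 CPM in Col-0, and no root marker was at 0 in any library. Of 5 stomatal lineage markers, 1 was higher and 0 lower in prt6-1erfvii than in prt6-1 (1 lower at an unadjusted p under 0.05, 0 with DESeq2), with a summed level of 52.8 to 56.0 CPM in prt6-1erfvii, 44.2 to 53.9 CPM in prt6-1 and 49.4 to 58.8 CPM in Col-0. The part of these tissue shares in the results on the members was not tested.

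The counting setting for strand is not given in the sources used here, and 13 members overlap a gene on the opposite strand (FLU, HEMC, PPOX1, GUN4, CHLI1, CHLI2, CHLM, CRD1, PORB, PORC, CAO, FC1 and HY2), so reads of those pairs may not be told apart. Moreover, 4 overlap a gene on their own strand (HEME1, CHLD, FC1 and PAO). HEMA1, CHLH, NYC1 and HCAR overlap none.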

How the data were processed

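RNA was measured by poly(A) sequencing in 12 libraries of whole seedlings (4 each of prt6-1erfvii, prt6-1 and Col-0). The authors deposited raw counts per gene, without normalization. Per the study's methods, strand-specific libraries were read as paired reads, trimmed with skewer, aligned to TAIR10 with HISAT2 2.1.0 (unique reads only) and counted with featureCounts 1.6.0, with the strand setting not given in the sources used here. Uniquely mapped reads understate genes with near-identical copies.

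Counts were used as deposited (23156637 to 30582461 per library). For each comparison, only its 8 libraries entered the fit, made with edgeR 4.0.16 in R 4.3.3 (filterByExpr, TMM, robust quasi-likelihood test, two-sided), with Benjamini-Hochberg adjustment over all genes tested and a threshold of 0.05. A ± value after a log2 fold change is its standard error. Levels are CPM after 1 TMM scaling of the 12 libraries, divided by union exon length in TAIR10.1 (RefSeq) where genes are compared. Alternatives were DESeq2 1.42.0, RLE factors, library totals, other filters, 1 fit over the 12 libraries, a replicate block and leaving out each library. The fit was tested on simulated data with 200 changed genes. In the data, 6524 genes were called in prt6-1erfvii over prt6-1 and 7727 in prt6-1erfvii over Col-0. The simulation therefore does not test the scaling under such wide change. All coordinates and sequences come from TAIR10.1, and proteins were not used here.

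Members and lists were chosen with earlier results of these data known. Every library is given for the 8 called members that changed most in each comparison and for paralogues, and other members by ranges. Replicate numbers were not used to pair the libraries in the main fits.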

Additional observations from a re-analysis of the deposited data

Results flagged for a closer look

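In 11 of 108 groups of 4 libraries (36 members in 3 genotypes), the highest or lowest library lay far from the other 3, by Dixon's test at the 95% level, where chance gives about 1 in 20. Replicate 4 of prt6-1 was that library for 4 members, the same library that stood apart over all genes: it was highest for CHLM (359.5 CPM), HY1 (133 CPM) and PPH (46.9 CPM) and lowest for PAO (52.7 CPM). Replicate 1 of prt6-1 was lowest for HEMF1 (216 CPM). In prt6-1erfvii, replicate 1 was highest for PORB (430.1 CPM) and FC1 (63.1 CPM). In Col-0, FC1 (59.7 CPM) and NOL (25.6 CPM) stood apart in replicate 1, FLU (122 CPM) in replicate 2 and PORA (0.119 CPM, a handful of counts) in replicate 4. Without prt6-1erfvii replicate 1 the PORB log2 fold change over prt6-1 was -0.75, against -0.68 with all libraries.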

How the results depend on the processing

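Scaling by library totals moved the median log2 fold change of all genes by -0.08, -0.02 and 0.05 in prt6-1erfvii over prt6-1, prt6-1erfvii over Col-0 and prt6-1 over Col-0. It left 8 members higher in the first, against 14, and 3 lower in the last, against 5 (12% and 0.718% of all genes tested with library totals). DESeq2 called 9 members lower in prt6-1 than in Col-0. Leaving out each library in turn gave 9 to 14 members higher and 3 lower in prt6-1erfvii over prt6-1, 3 to 7 higher and 6 to 9 lower in prt6-1erfvii over Col-0, and 0 higher and 3 to 14 lower in prt6-1 over Col-0. Over all genes the calls of these comparisons ranged over 5223 to 6877, 6628 to 7537 and 281 to 1231, with the lowest in the last without Col-0 replicate 2 and the highest without prt6-1 replicate 4. The cause was not tested.

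Estimates near 0 changed sign, none past the threshold. With library totals these were, in prt6-1erfvii over prt6-1, HEME1 (-0.0084), HEMF1 (-0.042), CAO (-0.021) and FC2 (-0.041) and, in prt6-1 over Col-0, GSA1 (0.0016), CHLD (0.012), CHLG (0.0087), FC1 (0.028), FC2 (0.015) and NOL (0.024). With DESeq2 it was CHLH in prt6-1erfvii over Col-0 (0.00091). With a library left out, estimates ranged over GSA1 -0.047 to 0.054, HEMF1 -0.018 to 0.062, DVR -0.082 to 0.030 and FC2 -0.0025 to 0.061 in prt6-1erfvii over prt6-1, CHLH -0.026 to 0.015 and FC2 -0.029 to 0.0061 in prt6-1erfvii over Col-0, and HEMA2 -0.0069 to 0.095, FC2 -0.060 to 0.0049, NOL -0.050 to 0.00011 and HCAR -0.0092 to 0.083 in prt6-1 over Col-0.

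With the replicate number as a block, 11 members were higher and 3 lower in prt6-1erfvii over prt6-1, 7 and 8 in prt6-1erfvii over Col-0, and 0 and 4 in prt6-1 over Col-0, with 5721, 8406 and 540 genes called in all, and GSA1 turned to 0.0029 in the first. Libraries of 2 genotypes with the same number had deviations correlated at -0.082 to 0.163, against -0.159 to 0.124 for those with different numbers. The labels give no shared batch, and these correlations cannot settle whether libraries with the same number shared one. Depth limited PORA and SGR2 and, outside the members, HO3. Each p-value sets a genotype difference against the spread between the libraries of its own fit.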
